A study of Mus musculus with 3 samples.

Results

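A distal window of low methylation is a 500-bp stretch of an autosome that lay more than 3 kb from every annotated transcript start and had a pooled TAPSβ level from 10 to 40%. TAPSβ reads 5-methylcytosine (5mC), and the level is the number of modified reads over all reads, summed over the CpG cytosines of the window. Windows were chosen by this level and by coverage: they held at least 6 CpG cytosines with TAPSβ reads and at least 60 such reads, had a mean depth of at most 26 reads, and touched no CpG cluster (a run of at least 20 CpGs with gaps of at most 50 bp). Among 4944687 autosomal windows, 2217030 met every condition other than the level and are called eligible distal windows. Of these, 126957 had a level from 10 to 40%. The eligible windows served for comparison in 3 further classes: 30870 with a TAPSβ level under 10%, 372395 between 40 and 60%, and 1686808 with 60% or more, called methylated distal windows. Since the TAPSβ level defined these classes, it is given only as a description, whereas CAPS and PS were not used to choose the windows.

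All libraries came from genomic DNA of mouse embryonic stem cells of the established line E14 (E14 mESCs), which were grown on gelatin in medium with serum, LIF and the inhibitors PD0325901 and CHIR99021. TAPSβ, CAPS, which reads 5-hydroxymethylcytosine (5hmC), and PS, which reads 5-formylcytosine (5fC) and 5-carboxylcytosine (5caC), were each applied in 1 library, with no untreated control, no second condition and no replicates. DNA for CAPS was selected at 200-400 bp and for the other methods at 300-500 bp, so the method and the fragment size cannot be told apart. Per cytosine the median depth was 13 reads for TAPSβ and 9 reads for CAPS and for PS, and the level of all CpGs was 57.5, 3.14 and 0.246%, respectively. The labelled cell type was checked at the starts of 3 pluripotency genes, where TAPSβ within 500 bp was 0.448% at Pou5f1, 0.132% at Sox2 and 8.06% at Nanog. Intervals below are 95% exact (Clopper-Pearson) for levels and on the log scale for ratios. They cover counting error only and treat the CpGs of 1 read, and the windows of a set, as independent. They say nothing of the spread between cultures.

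Most CpGs of a mammalian genome carry 5mC, and active enhancers and sites of bound transcription factors away from promoters are known as stretches of reduced methylation. TET enzymes oxidise 5mC stepwise to 5hmC, 5fC and 5caC, and the last forms are removed by base excision repair, which restores an unmodified cytosine. In embryonic stem cells, Tet1 and Tet2 are the main TET enzymes, and OCT4 (encoded by Pou5f1), SOX2, NANOG, ESRRB and KLF factors bind many distal sites.

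Stretches of 6 windows are shown first, because their CpGs carried some of the highest CAPS levels met among windows of low methylation or lay near pluripotency genes. The first 3 had the highest CAPS levels among windows with at least 60 CAPS reads, no variant-like cytosine (a PS level of at least 20% at 5 or more reads) and no UTR base. The other 3 had the highest CAPS level within 50 kb of Sox2, Nanog and Esrrb. Being chosen by CAPS, these windows have levels that are biased upward. Their intervals and counts of called cytosines do not allow for the choice. Each stretch is the plus strand of NCBIM37, the assembly also called mm9, and capitals mark every CpG.
Slc44a3 window, chr3:121245072-121245371: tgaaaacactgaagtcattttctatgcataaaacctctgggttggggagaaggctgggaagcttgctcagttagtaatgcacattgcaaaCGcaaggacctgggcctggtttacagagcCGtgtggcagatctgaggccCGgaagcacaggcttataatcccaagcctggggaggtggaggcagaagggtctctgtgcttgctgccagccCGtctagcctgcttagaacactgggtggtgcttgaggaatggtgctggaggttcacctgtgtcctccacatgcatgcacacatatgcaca
Eps15 window, chr4:108942701-108943000: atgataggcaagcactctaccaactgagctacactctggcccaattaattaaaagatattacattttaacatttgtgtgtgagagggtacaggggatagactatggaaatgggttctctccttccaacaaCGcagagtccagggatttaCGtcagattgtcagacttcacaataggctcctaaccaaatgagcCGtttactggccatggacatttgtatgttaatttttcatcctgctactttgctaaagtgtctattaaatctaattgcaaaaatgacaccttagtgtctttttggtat
Med13l window, chr5:119112001-119112300: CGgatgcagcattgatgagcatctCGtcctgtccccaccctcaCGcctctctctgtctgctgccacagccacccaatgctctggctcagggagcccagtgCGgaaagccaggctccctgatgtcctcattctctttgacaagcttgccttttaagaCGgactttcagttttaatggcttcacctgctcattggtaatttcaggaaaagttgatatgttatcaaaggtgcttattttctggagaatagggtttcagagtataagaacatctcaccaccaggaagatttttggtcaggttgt
Sox2 window, chr3:34542655-34542954: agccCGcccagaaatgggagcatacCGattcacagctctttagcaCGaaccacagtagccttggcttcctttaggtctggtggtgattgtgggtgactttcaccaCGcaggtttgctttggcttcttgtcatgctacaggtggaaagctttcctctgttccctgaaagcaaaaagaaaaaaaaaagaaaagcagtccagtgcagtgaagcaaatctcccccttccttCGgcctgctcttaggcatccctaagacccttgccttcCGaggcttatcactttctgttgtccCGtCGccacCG
Nanog window, chr6:122677185-122677484: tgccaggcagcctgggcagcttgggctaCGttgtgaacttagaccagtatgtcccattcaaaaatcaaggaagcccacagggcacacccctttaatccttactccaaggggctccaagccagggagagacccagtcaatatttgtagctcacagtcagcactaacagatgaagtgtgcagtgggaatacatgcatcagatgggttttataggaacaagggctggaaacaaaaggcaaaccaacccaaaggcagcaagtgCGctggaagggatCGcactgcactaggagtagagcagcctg
Esrrb window, chr12:87825657-87825956: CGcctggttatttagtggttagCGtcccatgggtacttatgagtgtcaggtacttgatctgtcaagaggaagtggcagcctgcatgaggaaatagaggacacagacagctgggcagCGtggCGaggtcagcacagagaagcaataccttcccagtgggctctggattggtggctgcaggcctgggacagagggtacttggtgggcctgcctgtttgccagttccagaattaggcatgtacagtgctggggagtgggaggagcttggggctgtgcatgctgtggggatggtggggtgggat

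The Slc44a3 window (chr3:121245001-121245500) was intergenic, 9739 bp from the nearest coding start, and all 4 of its CpGs lie in the stretch. Its TAPSβ level was 35.3% (54 of 153 reads), its CAPS level was 29.3% (22 of 75 reads, interval 19.4 to 41.0%) and none of its 58 PS reads was modified. On single cytosines CAPS ran from 0 to 57.1%, and 5 of the 8 had more modified reads than a false-positive rate of 0.0072 gives (exact binomial test, one-sided, Benjamini-Hochberg adjusted over the genome) and are called sites below. At position 121245191 no CAPS read of 7 was modified, and its partner cytosine at 121245192 had 4 of 7. The difference between the strands was not tested. In the Eps15 window (chr4:108942501-108943000), 9873 bp from the nearest coding start and also intergenic, CAPS was 27.9% (17 of 61 reads) beside a TAPSβ level of 34.3%, and 4 of 6 cytosines were called. In an intron of Med13l, which encodes a Mediator kinase module subunit, the window chr5:119112001-119112500 had 19 modified CAPS reads of 69 and a TAPSβ level of 37.7%. All 4 of its called cytosines lay on the minus strand, and 3 plus-strand cytosines had fewer than the 5 reads needed for a test. The other windows among the 10 with the highest CAPS levels ran from 26.1 to 27.9%. By coding start they were nearest to Zfp326 (62414 bp), Pmpcb (14959 bp), Ahctf1 (59690 bp) and Gm806 (8176 bp), or lay in introns of Tmem132c and Etl4 and in a UTR of Amotl1.

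The leading windows near the pluripotency genes were chosen within a smaller set, so their levels are not compared with those of the first 3. The Esrrb window (chr12:87825501-87826000) lay in an intron of the gene, 14434 bp from its start, with a CAPS level of 21.9% (14 of 64 reads, interval 12.5 to 34.0%) and a TAPSβ level of 28.6%. ESRRB is an orphan nuclear receptor of the naive pluripotency network. Intergenic sequence 19390 bp from a Nanog start, and nearer to Slc2a3, held the Nanog window (chr6:122677001-122677500), with 11 of 61 CAPS reads modified (18.03%, interval 9.36 to 29.98%) beside 28.1% in TAPSβ. The Sox2 window (chr3:34542501-34543000), 5927 bp from the Sox2 start in an intron of another annotated transcript, was the richest in CpGs, with 24 cytosines. Its CAPS level was 14.2% (25 of 176 reads, interval 9.41 to 20.3%), its TAPSβ level 25.5%, and 4 of 23 tested cytosines were called.

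Across all 126957 windows of low methylation the TAPSβ quartiles were 20.6, 28.9 and 35.3%, with 8, 12 and 18 cytosines and 121, 179 and 259 TAPSβ reads per window. The limits of the rule fell inside a continuous range: 159 windows stood at exactly 10% and 1062 at exactly 40%. Windows are named here by the nearest coding start, which can be far away (209473 bp for Rp1). Just inside the lower limit, the Rp1 window had 12 of 120 reads modified and the St18 window 11 of 110. Just outside it, the Psg17 and Pan3 windows had 58 of 581 and 57 of 571. At the upper limit, the Sntg1 and Sulf1 windows had 34 of 85 and 72 of 180. Just outside it, the Umps and Stox1 windows had 195 of 487 and 171 of 427. CAPS was 1.16 and 4.84% just inside the lower limit and 5.21 and 4.87% just outside it, and 14.3 and 11.9% just inside the upper limit and 5.78 and 9.07% just outside it. These values rest on few reads, such as 7 of 49 for Sntg1 (interval 5.94 to 27.2%) and 19 of 329 for Umps (3.51 to 8.87%). They show no step at a limit, and pooled CAPS was 7.08% from 35 to 40% and 6.48% from 40 to 45%.

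CAPS was higher in windows of low methylation than in any other class of distal window. The pooled CAPS level was 6.86% (1083534 of 15799253 reads, interval 6.85 to 6.87%), against 2.69% in methylated distal windows, 4.92% in windows between 40 and 60% and 3.03% in windows under 10%. The ratio to methylated distal windows was 2.55 (2.549 to 2.559), and on single autosomes it ran from 2.42 to 2.72. Relative to windows under 10% the ratio was 2.26 and relative to windows between 40 and 60% it was 1.39, both above 1 on all 19 autosomes. Autosomes shared 1 library and are no replicates. CAPS reads were thinner here, at 8.61 per cytosine against 9.97 in methylated windows, while TAPSβ depth was higher, with a median of 14.9 against 13.2. Within narrow ranges of CAPS depth the ratio to methylated windows stayed between 2.38 and 2.54.

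In steps of 10 points of TAPSβ the CAPS level rose and then fell. It was 3.03% under 10%, 5.92% from 10 to 20%, 7.16% from 20 to 30% and 7.21% from 30 to 40%. Above the range it dropped to 6.05% in the next step, to 3.24% from 60 to 70% and to 1.45% from 90 to 100%. In steps of 5 points CAPS was 7.34% from 25 to 30%, 7.37% from 30 to 35% and 7.08% from 35 to 40%, so the highest values lay inside the range and not at its upper limit. The step next to it outside the range, from 40 to 50%, was closer to the windows of low methylation than to the methylated ones. The CAPS level as a share of the sum of the CAPS and TAPSβ levels was 20.5% in windows of low methylation, 3.55% in methylated ones and 41.0% in those under 10%. The TAPSβ level that defined the classes is in the denominator, so the order of these shares is largely set by the rule.

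**Figure D1:**
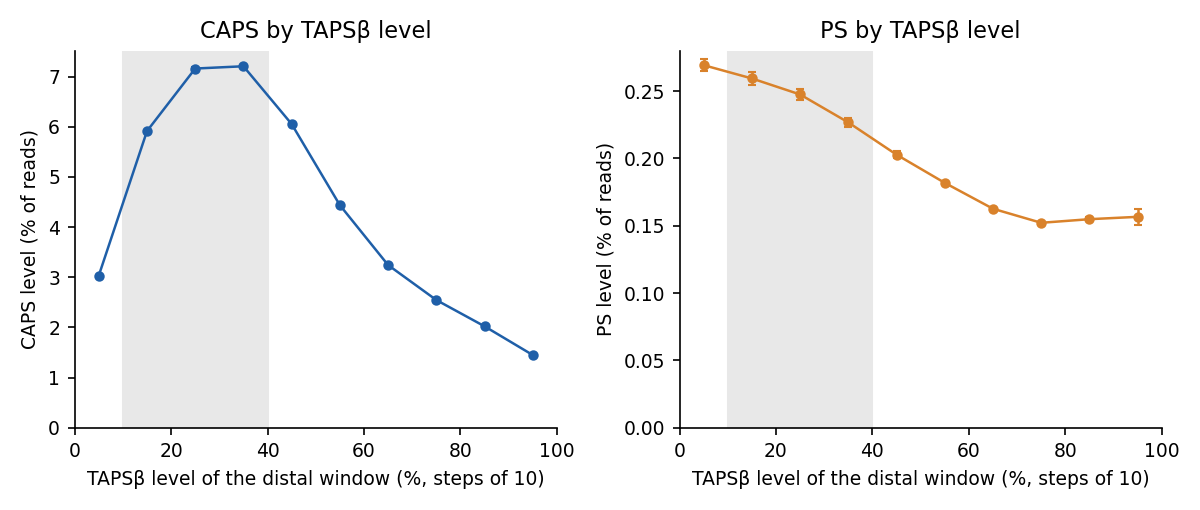
CAPS level (left) and PS level (right), in percent of reads, against the TAPSβ level of eligible distal windows in steps of 10 points; bars are 95% exact intervals of the pooled counts and the grey band marks 10 to 40%. CAPS peaks at 7.21% in the step from 30 to 40%, while PS is highest, at 0.269%, in the step under 10%.

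Single cytosines told the same order. In CAPS, 1.64% of all tested cytosines of the genome were called at an adjusted p under 0.05, and 1.75% of those in eligible distal windows with variant-like cytosines left out. In windows of low methylation 90871 of 1603221 tested cytosines were called, which is 5.67%, against 0.995% in methylated distal windows. Adjusting only over cytosines with a modified read raised the share in windows of low methylation from 5.67 to 15.22%, and the number called over the genome from 591604 to 1985632 of the 36060655 cytosines with at least 5 reads. This adjustment leaves out cytosines by the value that was tested, so a rise was fixed in advance. Its adjusted p no longer limits false calls to the stated 0.05. Summed over the window, 101868 of 126880 windows with at least 20 CAPS reads (80.3%) lay above the rate of 0.0072 by the same test, beside a background of 37.0% over all eligible windows, 29.96% in methylated ones and 47.0% in those under 10%. No modified CAPS read was found in 5131 windows of low methylation (4.04%), against 16.1% of all eligible windows, 17.8% of methylated ones and 7.86% of those under 10%. Among the 113543 windows with at least 60 CAPS reads the quartiles of the levels were 4.15, 6.59 and 9.32%, and the 5th and 95th percentiles were 1.23 and 13.9%. Plus-strand and minus-strand cytosines gave the same pooled CAPS level, 6.86%. CAPS exceeded TAPSβ in 746 of 126880 windows (0.588%), near the 0.522% of all eligible windows, and 710 of the 746 had a TAPSβ level under 20%. In these 746 windows the medians were 14.9% in CAPS and 12.5% in TAPSβ.

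PS levels were low everywhere. The pooled level in windows of low methylation was 0.241% (43192 of 17889631 reads, interval 0.239 to 0.244%), which lies under the background rate of 0.0027 used for calling, so PS values are compared with each other and not read as amounts of 5fC and 5caC. In the paper's control DNA of known modification, the PS conversion rate was lower on methylated lambda DNA than on unmodified cytosine. It was slightly higher on a synthetic 5mC control and higher still on 5hmC. PS background can therefore vary with the 5mC and 5hmC levels of a class, and its part in the PS differences was not tested. Against methylated distal windows, at 0.156%, the ratio was 1.54, with a range of 1.48 to 1.60 over autosomes. Against windows under 10%, at 0.269%, it was 0.897, and the value was under 1 on every autosome. Unlike CAPS, PS thus declined over the range, from 0.259% in the step from 10 to 20% to 0.227% in the step from 30 to 40%. With variant-like cytosines left out, 65 of 1681702 tested cytosines were called (0.00387%), near the 0.00534% of all eligible distal windows. Variant-like cytosines were defined by their PS level, so the filter removed sites by the value that was tested. These shares are therefore largely set by the filter and say little of how common called sites were. Over the genome 0.0791% were called, a figure that includes variant-like cytosines. PS depth was alike in the classes, at 9.75 reads per cytosine here and 9.88 in methylated windows.

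Methylation inside a window was uneven. Of the cytosines with at least 10 TAPSβ reads, 48.1% had a level from 10 to 40%, 26.6% were under 10% and 8.30% were over 60%. The spread of single cytosines about the level of their window was 3.37 times what counting alone gives (chi-square per degree of freedom), against 2.93 in windows between 40 and 60% and 1.81 in methylated distal windows. These are TAPSβ values, which chose the windows, and windows from 40 to 50% were close, at 3.22. The left and right 250 bp each had at least 30 reads in 97526 windows, and their levels differed by a median of 17.98 points. In 4293 of these windows one side was under 10% and the other over 50%, so a level from 10 to 40% included windows that straddled a border.

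Base composition differed too. Median GC content was 47.2% in windows of low methylation and 43.2% in methylated ones. CAPS rose with GC within windows of low methylation, from 4.71% at a GC content under 40% to 7.26% at 50% or more, and the ratio to methylated windows of the same GC range lay between 2.19 and 2.49. Grouped by their number of cytosines, windows with 6 to 9 had a CAPS level of 6.32%, those with 10 to 15 had 7.17% and those with 26 or more had 6.45%, with ratios to methylated windows from 2.77 down to 2.11. The CAPS level was therefore above that of methylated windows within each range of GC, cytosine number and CAPS depth examined, and the other classes were not compared in these ranges.

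Around the centre of the windows TAPSβ and CAPS moved in opposite directions. In 100-bp bins TAPSβ was 26.01% next to the centre, a value the rule fixed, 34.9% at 300 to 400 bp upstream by coordinate and 51.0% at 1900 to 2000 bp. CAPS was 7.07% next to the centre, 5.78% at 300 to 400 bp and 4.41% at 1900 to 2000 bp. Over the whole window CAPS was 1.52 times its level at 1 to 2 kb (6.86 against 4.51%, ratio interval 1.517 to 1.524). PS was also higher in the window, with a smaller range, 0.241% against 0.187% at 1 to 2 kb (ratio 1.29). TAPSβ was 26.7% in the window and 49.6% at 1 to 2 kb, and the part of PS background in this difference was not tested. Windows between 40 and 60% also had a central peak, with a CAPS level of 4.92% inside and 3.66% at 1 to 2 kb (ratio 1.34) and a PS ratio of 1.08. Methylated distal windows showed the reverse, with a CAPS level of 2.69% inside and 3.20% at 1 to 2 kb (ratio 0.839). In windows under 10%, CAPS was 4.83% at 1900 to 2000 bp upstream and only 2.92% next to the centre, while PS was 0.203 and 0.268% in the same bins.

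**Figure D2:**
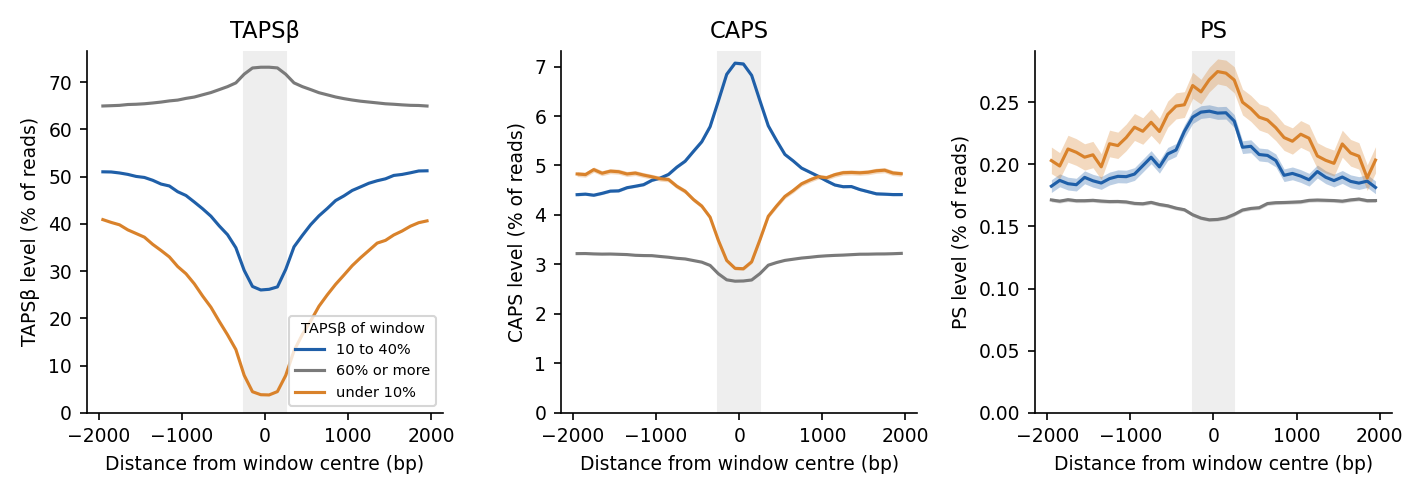
TAPSβ, CAPS and PS levels (percent of reads) in 100-bp bins within 2 kb of the centre of eligible distal windows, by the TAPSβ level of the window; lines are pooled levels, coloured bands 95% exact intervals, and the grey band the window. Windows of 10 to 40% show a CAPS peak of 7.07%, whereas windows under 10% show a CAPS dip to 2.91%.

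The level around the windows varied. Of 126398 windows with at least 60 TAPSβ reads at 1 to 2 kb, 61264 (48.5%) had a surrounding level of 60% or more, 37688 lay between 40 and 60%, and 27446 were themselves surrounded by a level under 40%. CAPS in the window differed little between these groups, at 6.93, 6.80 and 6.82%. Most windows of low methylation (58.9%) had no adjacent window that also met the rule. An adjacent window that was not eligible counted as none, so the share does not measure how far low methylation reached. Of all runs of adjacent windows, 74783 were single windows, 17030 were pairs and 3833 were runs of 3. CAPS was 6.73% in single windows, 6.93% in pairs, 7.20% in runs of 3, 7.18% in runs of 4 and 7.05% in runs of 5 or more.

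The longest runs were few. A run of 11 windows at chr16:18011001-18016500, intergenic and nearest to Vpreb2, a surrogate light chain gene of B cell precursors, covered 5500 bp with 210 cytosines. Its TAPSβ level of 27.4% was typical, but its CAPS level was only 2.66% (81 of 3040 reads, interval 2.12 to 3.301%), and the windows ran from 0.667 to 6.52%. The next run, 10 windows at chr15:97172501-97177500 in an intron of Fam113b, had 6.39% in CAPS. Of the 7 runs of 9 windows, the 3 with the most cytosines lay in introns of Rreb1 (chr13:37935501-37940000), which encodes a zinc finger transcription factor, of Abcc4 (chr14:119072001-119076500), a multidrug transporter, and of Rbpms (chr8:35018501-35023000), an RNA-binding protein. Their CAPS levels were 7.10, 8.72 and 6.14%, and in the Abcc4 run every window was at 4.93% or more. The Vpreb2 run thus had the lowest CAPS level of the 5, with an interval that did not reach those of the others. It was also covered more deeply, with 3040 CAPS reads over 210 cytosines against 1519 over 171 in the Fam113b run. Windows of low methylation with 12 or more CAPS reads per cytosine were at 5.88%. The part of depth in the level of the Vpreb2 run was not tested.

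By annotation of their middle, 51.3% of the windows of low methylation were intergenic and 44.5% intronic, against 54.9 and 41.9% of all eligible windows. CAPS was 6.58% in the intergenic and 7.15% in the intronic windows. Windows of low methylation were denser near genes: 8.54% of the eligible windows at 3 to 5 kb from a transcript start had a level from 10 to 40%, 5.79% at 20 to 50 kb and 2.06% beyond 500 kb. CAPS within them changed little up to 100 kb, between 6.79 and 6.997%, and was 5.71% at 200 to 500 kb and 4.37% in the 530 windows beyond 500 kb. The ratio to methylated windows at the same distance stayed between 2.25 and 2.84.

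Nearest genes were counted by giving each window to its closest protein-coding start within 50 kb. Plekha7, which encodes a protein of adherens junctions, had the most, with 86 of its 247 eligible windows (34.8%). Rnf220, a ubiquitin ligase gene, had 72 of 301 (23.9%), Arid5b, which encodes a DNA-binding protein, 69 of 314 (21.97%), and Esrrb 65 of 320 (20.3%). Myo10, an unconventional myosin gene, had 64 of 298 (21.5%), Auts2 62 of 465 (13.3%) and Rreb1 62 of 342 (18.1%). Smad7, which encodes an inhibitor of TGF-β signalling, had 61 windows and the highest share of the 10 leading genes, 38.1% of 160. Pitpnc1 (61 of 230, 26.5%) and Camta1 (60 of 553, 10.8%) completed the list. Over all genes the share was 7.49%, and the order by number follows in part how many windows were eligible. Within these 10 genes CAPS in windows of low methylation ran from 5.84% at Camta1 to 8.33% at Auts2, and Esrrb (8.16%) and Smad7 (8.23%) lay near the top.

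Pluripotency genes had a larger share of such windows around them than genes at large, and of windows under 10% as well. Over all genes 7.49% of the eligible windows within 50 kb had a level from 10 to 40%. For a list of 40 pluripotency genes the share was 18.8% (693 of 3679, interval 17.6 to 20.1%), and 36 of the 40 genes were above the share of all genes. Windows under 10% made up 8.83% of the eligible windows around the same genes and 1.98% around all genes, so the larger share was not particular to the range from 10 to 40%. Genes of lineage regulators, transcription factors that direct differentiation, had 9.49% (239 of 2519, interval 8.37 to 10.7%), with 18 of 28 genes above. Effector genes of differentiated cells had 6.46% (93 of 1439, interval 5.25 to 7.86%), with 8 of 27 above and 9 without any such window. Housekeeping genes, at 13.8% (88 of 637, interval 11.2 to 16.7%), were also above all genes, with 9 of 18 above and 4 without any such window. Genes without such a window were common at large too, since 14560 of all 19956 genes had any. The line of 7.49% is pooled over windows, whereas the median share per gene was 5% over all genes. How many of all genes lay above the line was not counted, so the counts of genes above it have no background. Within 100 kb the share was 15.49% for pluripotency genes (interval 14.54 to 16.48%) and 14.92% for housekeeping genes (interval 12.36 to 17.79%), and the intervals overlapped. The lists were chosen with results of these data known, so the shares are a description.

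**Figure D3:**
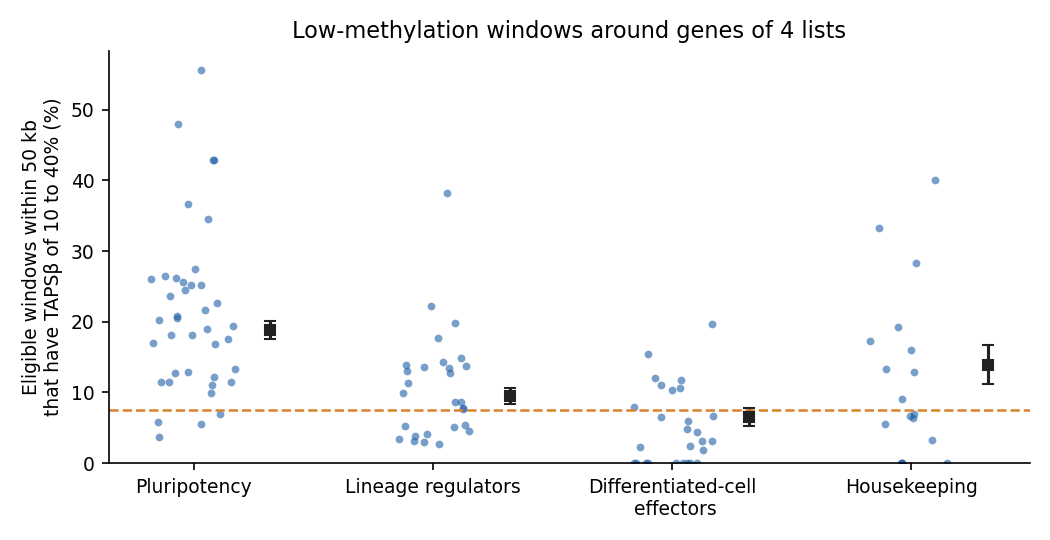
Percent of eligible distal windows within 50 kb whose TAPSβ level was 10 to 40%, for single genes (blue points) and pooled over each of 4 lists (black squares with 95% exact intervals); the dashed line is the share over all genes. Pluripotency genes pool to 18.8% and effector genes of differentiated cells to 6.46%, with 7.49% over all genes. The intervals treat windows as independent.

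Single genes ranged widely inside a list. Among pluripotency genes the share ran from 3.64% at Stat3, a transducer of LIF signalling, to 55.6% at Dppa5a, where only 9 windows were eligible. Pou5f1 had 12 of 25, Fgf4 11 of 30, Tbx3 39 of 113 and Klf5 40 of 159. Jarid2, a Polycomb cofactor gene, had 57 of 233. Among lineage regulators Cdx2, a trophectoderm and gut factor, was highest with 13 of 34, while Runx1, a blood factor, had 9 of 328. Alb, Gcg and Cd8a, which mark liver, pancreas and T cells, had none of 81, 75 and 50 eligible windows, respectively. Mbp, a myelin gene, had 37 of 188 (19.7%), which is 37 of the 93 windows of the effector list, while Myh7 had 2 of 13, Krt14 3 of 25 and Bglap 2 of 17. CAPS in the windows of low methylation differed less than their number, at 7.27% around pluripotency genes, 6.24% around lineage regulators, 6.55% around effector genes, 7.03% around housekeeping genes and 6.94% around all genes.

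Around 10 core pluripotency genes every window within 50 kb was counted, whichever gene was nearest. Esrrb had 68 of 375 eligible windows, with CAPS from 1.08 to 21.9% and a pooled level of 7.96%. Nanog had 31 of 115 and a pooled CAPS level of 7.09%, Sox2 had 21 of 124 and 8.25%, and Pou5f1 had 22 of 68 and 5.44%. For Klf4 (14 of 109) CAPS was 5.19% and for Zfp42, which encodes REX1, it was 5.15% (25 of 106). Nr5a2, a nuclear receptor gene, had the highest pooled level of the 10, 8.88% (interval 7.78 to 10.1%) in 19 windows. The interval for Pou5f1 reached from 4.60 to 6.38%. The intervals of Nr5a2, Sox2 and Esrrb lay above those of Pou5f1, Klf4 and Zfp42, while the first 3 overlapped each other. These intervals leave out the spread between windows, whose CAPS levels ran from 2.08 to 12.9% at Pou5f1 and from 0 to 16.9% at Zfp42. They are therefore too narrow to place one gene above another. Single windows reached 22.6% (21 of 93 reads) in an intron of Tfcp2l1 (chr1:120571001-120571500), 17.8% near Nr5a2 (chr1:138876001-138876500) and 17.3% near Tbx3 (chr5:120115501-120116000). The leading windows near Klf4 (chr4:55535501-55536000) and Pou5f1 (chr17:35635001-35635500) were at 8.66 and 12.9%.

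Sequence motifs were counted as exact matches on either strand, and 12 were searched in windows of low methylation and in all eligible windows. A CTCF consensus, bound by an insulator protein, was in 1995 windows of low methylation (1.57%) and in 0.174% of all eligible windows. A REST element, bound by a repressor of neuronal genes, was in 143 (0.113 against 0.0150%). The ESRRB element TCAAGGTCA was in 2962 (2.33 against 1.17%), and the KLF element GGGTGTGGC in 2641 (2.08 against 0.843%). Smaller differences were found for TCAAGGCCA, an NR5A2 element (2.89 against 2.10%), TTCCNGGAA, a STAT element (1.70 against 1.38%), and ATGCAAAT, the octamer bound by OCT4 (4.05 against 3.79%). The shares were alike for TGANTCA, an AP-1 element (14.6 against 14.7%), and lower here for CATTGTT, a SOX element (8.31 against 8.89%), but within ranges of GC both were higher in windows of low methylation. For SOX the shares were 11.3 against 10.8% under 45% GC, 8.12 against 6.99% from 45 to 50% and 5.32 against 4.75% at 50% or more, and for AP-1 they were 15.5 against 15.1%, 14.98 against 14.7% and 13.3 against 12.9%. NRF1 matches were in 119 windows (0.0937 against 0.0402%) and YY1 matches in 31 (0.0244 against 0.0172%). Within ranges of GC the YY1 shares were close, at 0.0117 against 0.0114% under 45% GC and 0.0225 against 0.0217% from 45 to 50%. At 50% or more they were 0.0401 against 0.0324%, with 16 windows. Windows under 10% held CTCF (2.65%), REST (0.126%), ESRRB (3.02%) and KLF (2.31%) matches at shares above those of the windows from 10 to 40%, so none of these motifs was particular to the range. The octamer and SOX elements overlap the OCT4-SOX2 composite, which was in 4 windows of low methylation and 27 eligible windows. GC content was higher in windows of low methylation, and its part in the shares was examined within ranges of GC. At 50% GC or more, KLF was in 2.89% of windows of low methylation and 1.90% of all eligible ones, and CTCF in 1.61 and 0.428%. A match is a stretch of letters and does not show that a factor was bound.

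Stretches of 5 windows with a match are shown to place the motif beside its CpGs, with capitals now marking the match and the windows chosen after their values were seen. For CTCF and REST the window with the most CAPS reads is shown, and for ESRRB, KLF and the OCT4-SOX2 composite the one with the highest CAPS level, in each case on the plus strand of NCBIM37. Where CAPS made the choice, levels and calls are biased upward and the intervals do not allow for it.
Pim3 window, chr15:88706881-88707000: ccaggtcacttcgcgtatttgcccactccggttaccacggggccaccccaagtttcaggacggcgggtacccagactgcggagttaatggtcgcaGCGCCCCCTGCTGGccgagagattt
2310047B19Rik window, chr9:21754881-21755000: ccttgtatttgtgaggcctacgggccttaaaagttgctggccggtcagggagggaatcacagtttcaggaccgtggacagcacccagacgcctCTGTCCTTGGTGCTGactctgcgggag
Prkch window, chr12:74843723-74843842: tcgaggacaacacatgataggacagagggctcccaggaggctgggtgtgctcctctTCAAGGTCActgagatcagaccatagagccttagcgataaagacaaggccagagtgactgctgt
Kif3c window, chr12:3401152-3401271: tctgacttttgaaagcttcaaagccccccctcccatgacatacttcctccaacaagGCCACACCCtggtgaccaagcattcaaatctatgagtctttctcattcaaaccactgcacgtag
Irx2 window, chr13:72974330-72974449: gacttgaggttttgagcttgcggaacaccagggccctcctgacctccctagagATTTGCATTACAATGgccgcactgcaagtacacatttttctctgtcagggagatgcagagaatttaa

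The Pim3 window (chr15:88706501-88707000, intergenic) held its CTCF match near its end. In the printed 120 bases, with 10 CpGs, 18 of 20 cytosines had no modified TAPSβ read, the level was 0.641% (2 of 312 reads) and CAPS was 3.04% (10 of 329). The remaining 26 cytosines of the window had 19.9% in TAPSβ, with single values up to 63.2%, and 6.35% in CAPS. The REST window (chr9:21754501-21755000, intergenic, nearest to 2310047B19Rik) had the same shape, with 2.07% in TAPSβ over the printed bases and 35.5% over the rest. At the ESRRB match, in an intron of Prkch, a protein kinase C gene, the printed stretch had 21.2% in TAPSβ (14 of 66 reads) and 32.4% in CAPS (11 of 34 reads, interval 17.4 to 50.5%). The Kif3c window, in an intron of a kinesin gene, had 25.3% in CAPS (22 of 87 reads), and both cytosines of the 1 CpG printed beside the KLF match were called. The OCT4-SOX2 window was intergenic, 203956 bp from its nearest coding start, that of Irx2, a homeobox gene. Its CAPS reads were modified in 16 of 160 (interval 5.82 to 15.7%).

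CAPS differed with the motif in the window. In windows of low methylation with a CTCF match the level was 4.02% (interval 3.95 to 4.09%) against 6.91% in those without, a ratio of 0.582, and with a REST match it was 4.05%, a ratio of 0.590. Their TAPSβ levels were lower as well, at 22.4 and 23.3%. At equal TAPSβ level the CTCF ratio was 0.586 from 10 to 20%, 0.591 from 20 to 30% and 0.640 from 30 to 40%. For ESRRB the level was 7.94% (interval 7.85 to 8.03%), a ratio of 1.16, and it was above 1 in each of the same steps, between 1.14 and 1.19. KLF gave a ratio of 1.08 (7.37%) and NR5A2 1.07 (7.30%), and AP-1, SOX, STAT and octamer matches lay between 1.03 and 1.04. The ratio was highest for YY1, at 1.24 (interval 1.12 to 1.37) in only 31 windows. For NRF1 it was 0.937 (interval 0.892 to 0.983). Median GC content was 49.2% in windows with a KLF match and 50.4% with a YY1 match, against 47.2% in all windows of low methylation. CAPS rose with GC, and the ratio of no motif was compared within ranges of GC. The ratios by motif exceeded counting error, but for AP-1, SOX, STAT and octamer matches they were small beside the difference between ESRRB and CTCF. Their intervals leave out the spread between windows, whose CAPS levels ran from 1.23% at the 5th to 13.9% at the 95th percentile. For YY1 (31 windows) and NRF1 (119 windows) the intervals are therefore too narrow to place the ratio above or below 1.

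**Figure D4:**
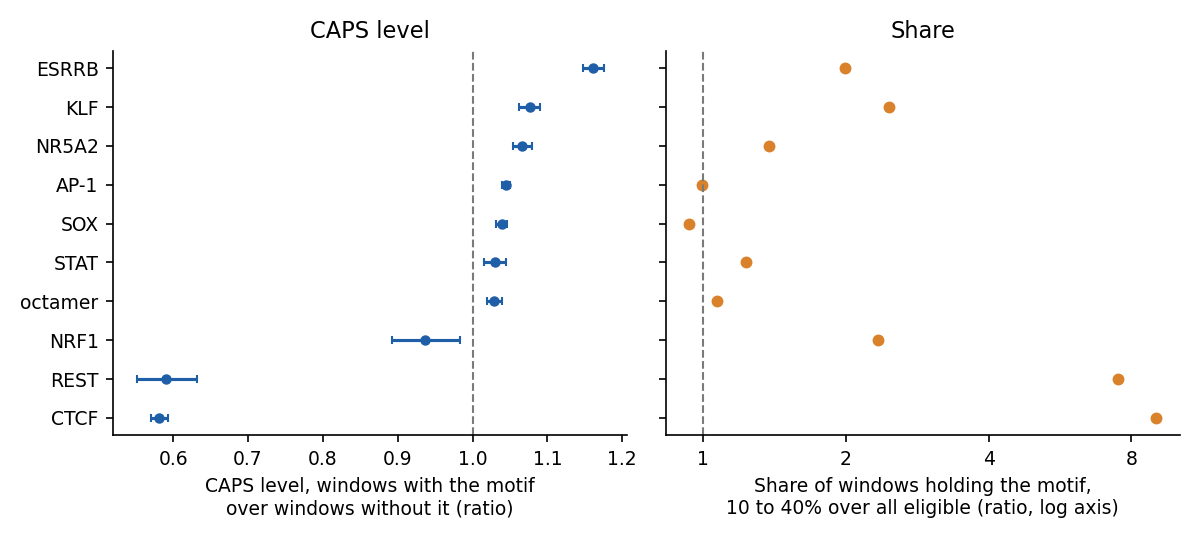
For 10 motifs with at least 100 matches in windows of low methylation, the ratio of CAPS levels between windows with and without the motif (left, with 95% intervals from read counts) and the ratio of the share of windows holding the motif to that of all eligible windows (right, log axis). CTCF and REST stand apart with CAPS ratios of 0.582 and 0.590 and the highest share ratios, 9.03 and 7.50.

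Centred on the 2003 CTCF matches and turned to the strand of the motif, TAPSβ and CAPS showed repeated peaks. TAPSβ was 4.89 and 3.65% in the 50-bp bins on either side of the match, at most 20.5% out to 200 bp, 54.1% at 200 to 250 bp upstream and 51.7% at 200 to 250 bp downstream. It then dropped to 27.5% at 300 to 350 bp upstream and to 30.02% downstream, and was at 65.9 and 62.5% at 400 to 450 bp. CAPS was 2.35 and 2.04% at the match, 6.84 and 6.43% at 50 to 100 bp, and 1.80 and 2.44% at 150 to 200 bp. It came back to 6.15% at 250 to 300 bp upstream and to 7.49% downstream. At 50 to 100 bp CAPS therefore peaked where TAPSβ was 15.2 and 12.4%, inside the stretch of low methylation, and these peaks were close to the 6.91% of windows without a match. Windows under 10% showed the same pattern. Around 825 matches in windows under 10%, CAPS was 1.49 and 1.43% at the match, 4.21 and 3.04% at 50 to 100 bp, 1.35 and 1.47% at 150 to 200 bp, and 5.77 and 6.89% at 250 to 300 bp. Around 455 matches in methylated windows, CAPS was 5.37 and 3.55% at the match, 5.80 and 5.26% at 50 to 100 bp and 2.80 and 3.32% at 250 to 300 bp, without the second peak.

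**Figure D5:**
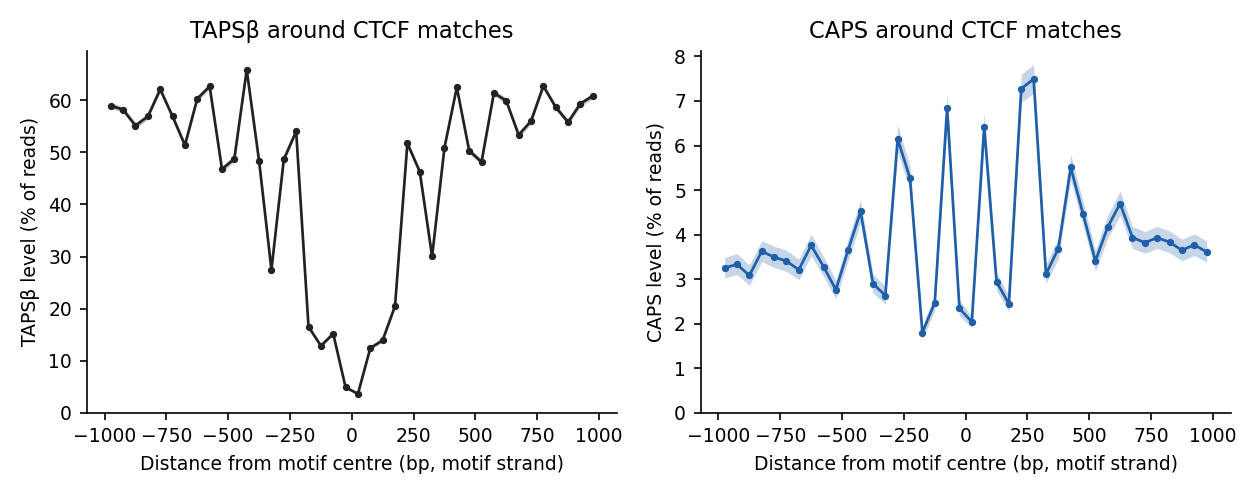
TAPSβ (left) and CAPS (right) levels in percent of reads, in 50-bp bins within 1 kb of 2003 CTCF consensus matches in windows of low methylation, turned to the strand of the motif; bands are 95% exact intervals. CAPS is at 2.04 to 2.35% at the match, 6.43 to 6.84% at 50 to 100 bp and 1.80 to 2.44% at 150 to 200 bp.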

How the data were processed

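Per the submitters' processing notes, the tools used by the authors included Trim Galore 0.3.1, BWA 0.7.12, Picard 2.3.0 and asTair, with mm9 as the genome. The values they deposited are the count of modified reads and the count of unmodified reads at each CpG cytosine, not normalized. The deposited fraction is the modified count over the sum of both. The authors left artifact-prone regions and known E14 variants out of their analysis, and whether the deposited counts already lack them is not given in the sources used here.

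Windows were built on NCBIM37 (mm9) and GENCODE M1 from 1 library per method. Variant-like cytosines were left out of CAPS and PS levels. Cytosines with at least 5 reads were tested against 0.0072 (CAPS) or 0.0027 (PS), genome-wide, and the calling was tested on simulated data. The windows, gene lists and motifs were chosen with earlier results of these data known. Named were the 10 windows of highest CAPS level with at least 60 CAPS reads, the 10 genes with the most windows, the 5 longest runs, windows within 50 kb of 10 pluripotency genes and windows at the TAPSβ limits. CTCF profiles, CAPS ratios by motif and the ranges of GC, cytosine number and depth were chosen after values were seen. Symbols not found in GENCODE M1 were matched through RefSeq synonyms, and Sox1 was not analysed here. Alternatives varied the window rule, the read minimum, the treatment of variant-like and deep cytosines, averaging, correction and calling. Computations used Python 3.11.15 with pandas 2.3.3, numpy 2.4.6, numba 0.67.0, scipy 1.17.1 and matplotlib 3.10.9.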

Additional observations from a re-analysis of the deposited data

How the results depend on the processing

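No paired analysis was possible because each method had 1 library. The CAPS and PS ratios to methylated windows and the CAPS ratio to 1 to 2 kb away stayed above 1 under each alternative that gave a value, and the ratios to the other classes and by motif were not varied. With 120 or more TAPSβ reads, CAPS was 6.976%, its ratio to methylated windows 2.418 and its ratio to 1 to 2 kb away 1.513. Beyond 10 kb from starts these ratios were 2.633 and 1.532. A TAPSβ range of 15 to 35% left 79900 windows, with CAPS at 7.053% (ratios 2.626 and 1.55), PS at 0.2458% (ratio 1.571) and 5.901% of cytosines called. Counting variant-like cytosines gave 6.876% (ratio 2.541) in CAPS and 0.2721% (ratio 1.452) in PS. Averaging cytosines gave 6.982% (ratios 2.568 and 1.51) and 0.2318%. Leaving out deep cytosines gave 6.884% in CAPS and a PS ratio of 1.559. With 10 or more reads, CAPS was 6.563% (ratios 2.504 and 1.535), PS 0.2453% (ratio 1.524) and the called share 7.199%. Corrected for false-positive and conversion rates, CAPS was 7.451% (ratio 3.123) and PS -0.03732%, so no corrected PS ratio could be given. The correction took 1 false-positive rate for both classes, that of unmodified cytosine. In the paper's controls CAPS conversion was lower on 5mC than on unmodified cytosine. The corrected ratio may therefore be too high, and the size of this was not tested. The called share was 15.22% when adjusted only over cytosines with a modified read and 4.533% against a rate of 0.01. Over the whole genome the called share moved in the same directions. It rose with 10 or more reads and with the adjustment over cytosines with a modified read, and it fell against a rate of 0.01. These changes in the called share were therefore not particular to windows of low methylation. Distances of 20 and 100 kb, added after seeing the data, gave 21.65 and 15.49% for pluripotency genes and 8.256 and 6.964% for all genes, and 20 kb gave 12.24% for lineage regulators. At 100 kb housekeeping genes were at 14.92%, with an interval overlapping that of pluripotency genes. The cause of these shifts was not tested. With about 9 reads per cytosine in CAPS and PS, single cytosines had wide intervals, and spread between cultures could not be measured.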

Other observations

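Among windows with at least 60 CAPS reads and no variant-like cytosine, the 3 in which CAPS exceeded TAPSβ by the most points, chosen after their values were seen, lay in exons or between genes. A window in a UTR of Amotl1, which encodes an angiomotin-like protein, had 34 of 122 reads modified in CAPS (27.9%) and 39 of 248 in TAPSβ (15.7%). In a coding exon of Pclo, a gene of the presynaptic active zone, CAPS was 25 of 100 reads and TAPSβ 24 of 177. An intergenic window nearest to Gclc, which encodes a subunit of glutamate-cysteine ligase, had 17 of 72 reads in CAPS and 23 of 186 in TAPSβ.

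The other OCT4-SOX2 matches lay in an intron of Ebf1, where CAPS was 8.26% (10 of 121 reads), nearest to Gm5045, where it was 8.33% (16 of 192 reads), and 365678 bp from Tbx3, where it was 4.79% (7 of 146 reads).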
